A study of Mus musculus with 8 samples.

Results

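The GABA-A receptor alpha subunit genes Gabra2, Gabra3, Gabra4, Gabra5 and Gabra6 were taken from a table of RNA levels in the mouse olfactory bulb by their gene symbols, and all 5 were found among its 19583 entries. GABA-A receptors are pentameric chloride channels opened by GABA, the main inhibitory transmitter of the brain. The alpha subunit, together with a beta subunit, forms the GABA binding site, and its type sets where the receptor sits, how strongly it binds GABA and whether it responds to benzodiazepines. Receptors with Gabra2 or Gabra3 products are mostly found at synapses. Those with the Gabra5 product are often outside synapses, and those with Gabra4 or Gabra6 products commonly pair with the delta subunit outside synapses. In the bulb, granule cells and periglomerular cells are GABA-releasing interneurons that inhibit mitral and tufted cells, the projection neurons, and receive GABA input themselves. Gabra5 is known for its expression in the granule cell layer and Gabra6 for cerebellar granule cells.

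Bulbs were collected at postnatal day 30 from 2 groups of mice, with 4 libraries each. Their genetic background was a mix of the strains CD1, C57BL/6J and 129S6. The double mutants carried hGFAP-Cre and floxed alleles of Sp8 and Sp9 (Sp8 Flox/Flox; Sp9 Flox/Flox), and the controls were labelled wild type and littermates. hGFAP-Cre drives recombination from a human GFAP promoter in radial glia and their descendants, so cells outside that lineage keep both factors. No group carries the transgene or the floxed alleles alone, so their effects and those of the loss of both factors cannot be told apart. Sp8 and Sp9 encode zinc finger transcription factors of bulb interneurons and their precursors. The comparison asks how RNA levels in the bulb differ when both are removed.

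Depth was estimated at 11889092 to 15992133 fragments in the wild-type and 12453046 to 19040725 in the double mutant libraries. Sp8 measured 29.3 to 31.6 FPKM (a level that divides fragments by transcript length and library size) in wild type and 6.15 to 8.06 FPKM in the double mutants, and Sp9 23.1 to 25.3 and 6.24 to 7.27 FPKM. In the labels the double mutant libraries carry the letters A and B and the wild-type libraries C and D, with 2 libraries per letter. Whether a letter is 1 animal or a pool is not given in the sources used here, so p-values measure the spread between libraries, which may be technical. Xist, the RNA of the inactive X chromosome, measured 0.0364 and 0.0538 FPKM under letter B and 76.8 to 115.4 FPKM in the other 6 libraries, so within the double mutants Xist and letter move together. Defining bulb genes were present in both groups: Eomes and Tbx21 of mitral and tufted cells averaged 45.6 and 15.9 FPKM in wild type and 84.0 and 28.1 FPKM in the double mutants, and Th of periglomerular cells 86.9 and 83.5 FPKM.

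The 5 genes lie at 4 places in the genome, next to other GABA-A receptor genes (GENCODE M21, GRCm38, counted from 1, all protein-coding and on the minus strand). Gabra2 spans chromosome 5 from 70957597 to 71095849 and Gabra4 follows 473.9 kb away from 71569749 to 71658308. Gabra5 spans chromosome 7 from 57407672 to 57510059, Gabra3 chromosome X from 72432681 to 72656848, and Gabra6 chromosome 11 from 42306437 to 42321072. Exons of Gabra5 overlap exons of Gm9962 on the opposite strand by 148 bases, and exons of Gabra4 overlap those of Gabrb1 by 46 bases. The strand setting of the counting is not given in the sources used here, so reads of these overlaps cannot be assigned. Gm9962 averaged 0.625 FPKM in wild type and 0.444 FPKM in the double mutants.

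The sequences upstream of the start sites are shown for Gabra2, Gabra4 and Gabra5, the genes that were lower in the double mutants, because Sp factors are known to bind GC-rich boxes. Each is the RefSeq window (GRCm38.p6) from base 250 to base 61 before the annotated start, 5′ to 3′ on the minus strand of the gene. Whether the windows overlap exons of other genes was not tested. The Gabra4 window lies within the annotated span of Gabrb1, on the plus strand of chromosome 5 from 71658113 to 72149037. Capitals mark the 6-letter GC box GGGCGG and the GT box GGGTGG, searched on both strands, and the marked boxes do not overlap each other. A GC box on the other strand reads CCGCCC.
Gabra2, chr5:71095910-71096099: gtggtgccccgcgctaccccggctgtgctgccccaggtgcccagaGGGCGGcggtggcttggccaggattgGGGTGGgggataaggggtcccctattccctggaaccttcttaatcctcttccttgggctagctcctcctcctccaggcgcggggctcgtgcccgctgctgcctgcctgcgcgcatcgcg
Gabra4, chr5:71658369-71658558: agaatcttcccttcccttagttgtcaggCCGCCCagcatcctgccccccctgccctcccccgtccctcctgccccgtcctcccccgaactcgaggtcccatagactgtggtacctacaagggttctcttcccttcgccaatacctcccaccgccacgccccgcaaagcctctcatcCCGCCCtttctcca
Gabra5, chr7:57510120-57510309: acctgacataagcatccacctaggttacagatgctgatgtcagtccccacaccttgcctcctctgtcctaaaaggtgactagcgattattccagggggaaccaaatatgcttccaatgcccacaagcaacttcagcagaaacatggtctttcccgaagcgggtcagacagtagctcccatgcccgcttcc
Gabra2 had 1 GC box and 1 GT box, which begin at positions -205 and -179 from the start. Gabra4 had 2 GC boxes, which begin at -222 and -74, and no GT box. Of the members that are not shown, Gabra3, which did not pass the test, had a GT box at -95 in 1 of its 2 windows and no GC box, and Gabra6 had neither motif. Neither motif was in the Gabra5 window, which says only that these letters are not in those 190 bases. Of 32851 RefSeq windows of this length, 22.8% held a GC box and 21.2% a GT box, and 9.1% held 2 or more GC boxes. The 3 printed windows had 69.5%, 63.7% and 51.6% G and C in this order.

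Gabra5 had the largest change of the 4 genes that could be tested. It measured 31.4, 31.7, 33.1 and 32.5 FPKM in wild-type replicates 1 to 4 and 6.24, 6.23, 6.63 and 6.41 FPKM in the double mutant replicates. The 4 double mutant values sat close together and far below all wild-type values. They rest on about 290.0 to 446 fragments per double mutant library and 1324 to 1758 per wild-type library. The mean went from 32.2 ± 0.8 to 6.38 ± 0.19 FPKM (SD, n = 4), which is 19.8% of wild type. On the scale of log2(FPKM + 0.5) the change was -2.25 with an SE of 0.04 (adjusted p = 2.04e-10 from limma). It ranked 5 from the lowest of 14349 tested genes. The log2 differences below use this scale, except in alternatives with another pseudocount or with the scaled count columns. Exact permutation of the 70 ways to assign the libraries (two-sided) gave p = 0.0286, the smallest value that 4 against 4 libraries allow. Libraries of the same letter were closer to each other than to the other letter of their group (median chi-square over its expectation of 1.18 to 1.44 against 1.56 to 2.35). They may not be independent, and the permutation takes no account of it. In a bulk sample, fewer cells of a type and less RNA per cell cannot be told apart, and this holds for every gene below.

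Gabra2 and Gabra4, neighbours on chromosome 5, fell by similar and smaller amounts. Gabra2 measured 36.1, 38.0, 36.5 and 37.1 FPKM in wild type and 23.5, 24.5, 27.2 and 26.9 FPKM in the double mutants. The groups did not overlap, and among the double mutants both libraries of letter A lay below both of letter B. The mean fell to 69.1% of wild type, with group means of 36.9 ± 0.8 and 25.5 ± 1.8 FPKM (SD, n = 4). The log2 difference was -0.53 with an SE of 0.05 (adjusted p = 4.66e-06 from limma). Gabra4 measured 14.0, 14.5, 14.0 and 14.8 FPKM in wild type and 10.1, 9.56, 10.6 and 10.2 FPKM in the double mutants, again without overlap. Its mean fell to 70.7% of wild type, with group means of 14.3 ± 0.4 and 10.1 ± 0.4 FPKM. The log2 difference was -0.48 with an SE of 0.04 (adjusted p = 3.66e-06 from limma).

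Gabra3 did not pass the test. It measured 38.4, 37.9, 38.6 and 40.6 FPKM in wild type and 41.5, 39.0, 43.5 and 40.0 FPKM in the double mutants, and the ranges overlapped. The means were 38.9 ± 1.2 and 41.0 ± 2.0 FPKM (SD, n = 4), and the log2 difference was 0.07 with an SE of 0.04 (adjusted p = 0.122 from limma, p = 0.143 by exact permutation). The call depends on the scaling of the libraries. With upper quartile scaling the difference was 0.16 (limma adjusted p = 0.00341), with trimmed mean scaling 0.13 (adjusted p = 0.0103), with quantile normalization 0.17 (adjusted p = 0.00306) and in the scaled count columns 0.10 (adjusted p = 0.0218), and in each of these it passed as higher. Gabra3 is on the X chromosome, and its values in the letter with almost no Xist RNA, 43.5 and 40.0 FPKM, stood beside 41.5 and 39.0 FPKM in the other double mutant letter. The part of Xist or letter in these values was not tested.

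Gabra6 was near the limit of detection. It was listed at 0 in all 4 double mutant libraries and at 0.0621, 0.0207, 0.0506 and 0.0849 FPKM in wild-type replicates 1 to 4. In fragments these are about 3, 1, 2 and 3, so no wild-type library exceeded the 3 fragments that a count of 0 still allows, and no fold is given. The exact permutation test of the listed values gave p = 0.0286, which rests on 9 wild-type fragments in all against 0. Its mean lay below the filter of 0.5 FPKM, so it entered limma only in the alternative fit with no filter. Of 8 cerebellar markers, Cbln3, Fat2, Barhl1 and Atoh1 measured between 0 and 0.192 FPKM in all libraries. The other 4 were present: Cbln1 averaged 24.0 FPKM in wild type and 30.2 FPKM in the double mutants, Neurod1 5.33 and 12.95 FPKM, Ppp1r17 2.24 and 1.26 FPKM and Pcp2 1.001 and 0.902 FPKM.

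**Figure D1:**
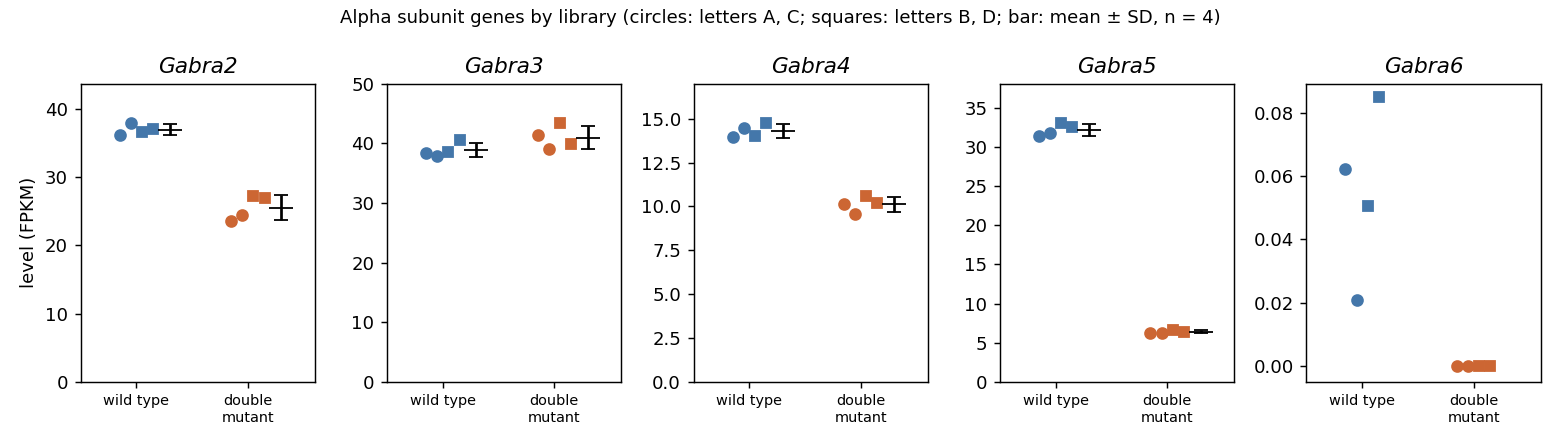
Levels in FPKM (vertical axis, own scale per panel) of the 5 alpha subunit genes in each wild-type and double mutant library, with the mean ± SD of 4 libraries for the first 4 genes. Gabra5, Gabra2 and Gabra4 show no overlap, with all double mutant values below, the Gabra3 ranges overlap, and Gabra6 is at most 0.0849 FPKM.

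Of the 4 genes that passed the filter on low values, 3 fell, none rose and 1 did not pass. This count is to be read against a comparison in which limma called 65.3% of the 14349 tested genes at an adjusted p below 0.05, with 36.5% lower and 28.8% higher. The same 3 genes had no overlap between the groups, as did 59.1% of all tested genes. The median log2 fold change of the 4 was -0.50, against -0.04 over all tested genes. Called genes split into 4127 higher and 5237 lower, and with upper quartile scaling into 5136 higher and 3820 lower, that is 44.1% and 57.3% higher. Gabra2, Gabra4 and Gabra5 were lower under each of 23 alternative fits, with ranges of -0.61 to -0.43, -0.52 to -0.40 and -2.32 to -2.17 and adjusted p-values of at most 0.00121, 0.000993 and 4.1e-05.

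Because FPKM is a level per length, the genes can be ranked within a group. In wild type the order of the means was Gabra3, Gabra2, Gabra5, Gabra4 and Gabra6. The ranges of Gabra3 and Gabra2 overlapped slightly, at 37.9 to 40.6 and 36.1 to 38.0 FPKM, and the other neighbours did not overlap. Whether these 2 genes differ in wild type was not tested. In the double mutants Gabra3 came first, then Gabra2, Gabra4 and Gabra5, with no overlap between neighbours. Gabra5 thus went from the third to the fourth place, below Gabra4. The summed level of the 5 genes was 122.4 ± 2.1 FPKM in wild type and 83.0 ± 3.7 FPKM in the double mutants (SD, n = 4).

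As a share of that sum, Gabra5 went from between 26.0% and 27.1% in the wild-type libraries to between 7.54% and 7.86% in the double mutants. Gabra3 took 31.0% to 32.5% in wild type and 47.9% to 51.0% in the double mutants. Gabra2 held 29.6% to 31.1% and 28.9% to 32.2%, which overlap, and Gabra4 11.4% to 11.9% and 12.1% to 12.4%. The shares add to a whole, so a fall of 1 gene raises the others. The sum covers these 5 genes and not the whole family.

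**Figure D2:**
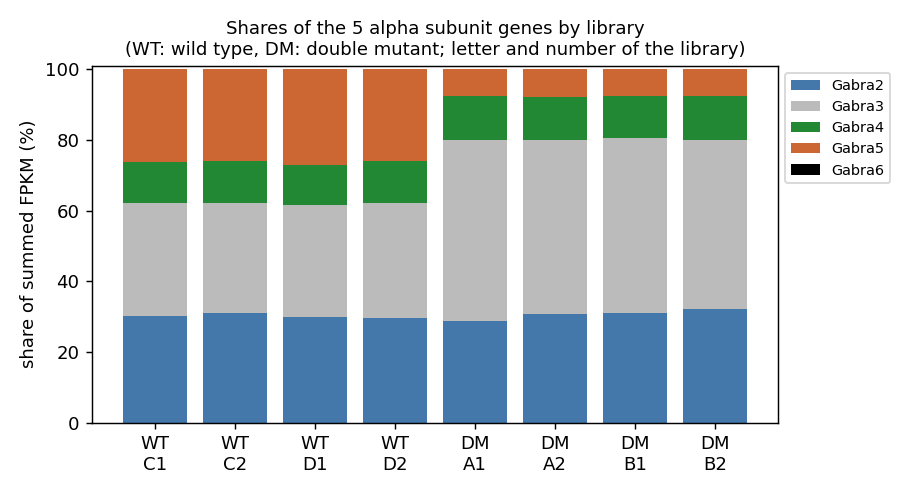
Stacked bars of the share (%) of each of the 5 genes in their summed FPKM, 1 bar per library, wild type at the left and double mutant at the right. The Gabra5 share is at least 26.0% in each wild-type library and at most 7.86% in each double mutant library, while the Gabra3 share is at least 47.9% in the double mutants.

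Log ratios between the members within a library do not depend on how libraries are scaled against each other, apart from the pseudocount, and all 6 pairs of the 4 tested members were compared. The ratio of Gabra5 to Gabra2 fell from between 0.838 and 0.908 to between 0.252 and 0.281, a log2 difference of -1.72 (exact permutation p = 0.0286, adjusted over the 6 pairs p = 0.0343). The differences of Gabra5 to Gabra4 and to Gabra3 were -1.77 and -2.32, with the same p-values. The ratio of Gabra3 to Gabra2 rose by 0.60 and that of Gabra4 to Gabra3 changed by -0.55, again without overlap between the groups. The ratio of Gabra4 to Gabra2 was 0.389 to 0.407 in wild type and 0.390 to 0.443 in the double mutants. Those ranges overlapped, and the difference of 0.05 did not exceed the spread (p = 0.343 by exact permutation).

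Each member was also set against Slc32a1, the vesicular GABA transporter gene that inhibitory neurons share. Slc32a1 itself measured 121.2 to 126.0 FPKM in wild type and 52.0 to 57.1 FPKM in the double mutants. Gabra5 per Slc32a1 fell from between 0.252 and 0.273 to between 0.120 and 0.132, a log2 difference of -1.07. The other members moved the opposite way in this ratio, with differences of 0.65 for Gabra2, 0.70 for Gabra4 and 1.25 for Gabra3. In their own levels Gabra2 and Gabra4 had log2 differences of -0.53 and -0.48, and Gabra3 did not pass (0.07). In all 4 ratios the groups did not overlap (exact permutation p = 0.0286 each, also after adjustment over the 4 ratios). A gene without change would also rise in this ratio, because the log2 difference of Slc32a1 itself was -1.18. The median over all tested genes was -0.04. The share of all tested genes without overlap in this ratio was not computed, so these p-values do not set the members apart from other genes. With Gad1 in place of Slc32a1 the differences were -1.001, 0.72, 0.77 and 1.32 for Gabra5, Gabra2, Gabra4 and Gabra3. Gad1 itself had a log2 difference of -1.25, and Gad2, with -0.70, was not used in such a ratio.

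**Figure D3:**
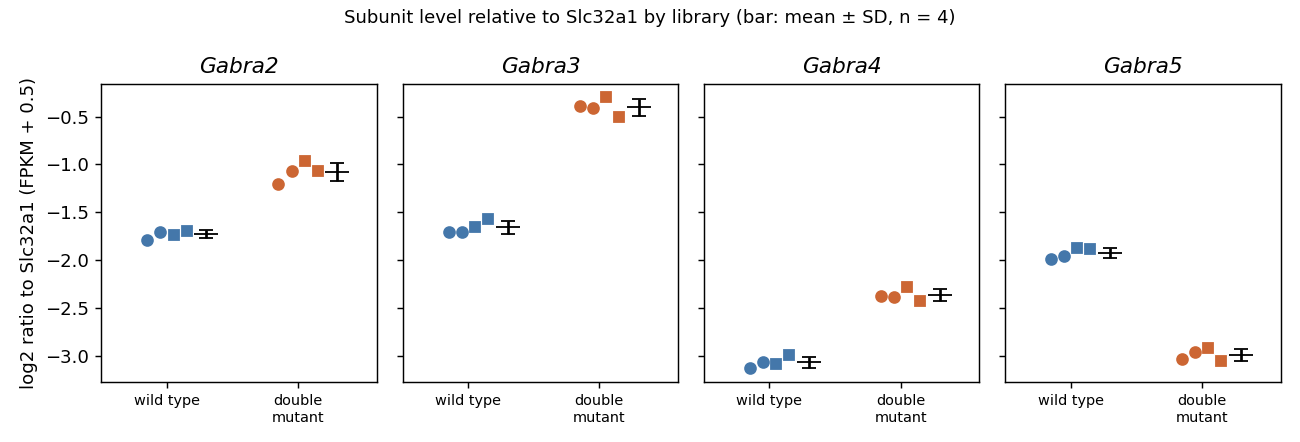
Log2 ratio of each tested alpha subunit gene to Slc32a1 (vertical axis, FPKM + 0.5) in each library, with the mean ± SD of 4 libraries per group. The ratio is lower in the double mutants for Gabra5, with a difference of -1.07, and higher for Gabra2, Gabra3 and Gabra4. Slc32a1 itself is lower in the double mutants.

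Markers of several cell types moved in the same libraries, and their part in the changes of the members was not tested. Their counts stand beside 36.5% lower and 28.8% higher over all tested genes. The 6 genes listed as granule cell markers were Penk, Synpr, Meis2, Tshz1, Prokr2 and Nrgn. Whether each marks granule cells alone was not tested. All 6 were lower, with log2 fold changes from -3.27 (Prokr2) to -1.55 (Tshz1) and a median of -1.74. Their summed level was 549 to 587 FPKM in wild type against 167 to 181 FPKM in the double mutants. Of 7 mitral and tufted cell markers 6 were higher and 1 did not pass, with a median of 0.74 and sums of 840 to 864 and 1095 to 1168 FPKM. Of 4 periglomerular markers 1 was lower and 3 did not pass, with sums of 406 to 422 and 277 to 298 FPKM. All 4 astrocyte markers were higher (249 to 267 and 412 to 435 FPKM in sum). The 4 tested cortical markers were higher too, at sums of 6.65 to 7.36 and 9.11 to 11.6 FPKM. Among them, Emx1 had overlapping groups and did not pass without letter A (0.25) or letter D (0.36), and Rorb did not pass with quantile normalization (0.19). Of 8 cerebellar markers 4 were tested, with 2 higher, 1 lower and 1 not past the test, and sums of 31.1 to 35.8 and 44.4 to 47.3 FPKM that came mostly from Cbln1 and Neurod1.

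The partner subunits moved in both directions. Of 10 analysed genes 6 passed the filter. Of these, 1 fell, 2 rose and 3 did not pass, beside 36.5% lower and 28.8% higher over all tested genes. The median of the 6 was -0.02. Gabrd, the delta subunit of receptors outside synapses, fell to 42.0% of wild type, from 24.2 ± 0.3 to 10.2 ± 0.8 FPKM (SD, n = 4), a log2 difference of -1.21 with an SE of 0.05 (adjusted p = 1.98e-08 from limma). Gabrb1 rose by 0.32 (limma adjusted p = 0.012), but it did not pass without letter A (0.30) or letter D (0.18). Gabrg1 rose by 0.24 (limma adjusted p = 0.0183), but its groups overlapped (exact permutation p = 0.0571). The call did not hold without double mutant replicate 4 (0.21), wild-type replicate 3 (0.19), letter B (0.15) or letter C (0.26).

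Gabrb2, Gabrg3 and Gabrq did not pass the test. Gabrb2, a beta subunit gene, measured 41.1 ± 1.2 FPKM in wild type and 44.8 ± 4.4 FPKM in the double mutants (SD, n = 4), with a difference of 0.12. It passed as higher in the 4 scaling alternatives (0.15 to 0.21), without letter A (0.23) and without double mutant replicate 2 (0.17), and was -0.000306 without letter B. Gabrg3 was at 2.57 ± 0.27 and 2.09 ± 0.38 FPKM, with a difference of -0.25. It passed as lower without double mutant replicate 3 (-0.32), wild-type replicate 2 (-0.31) or letter B (-0.37) and with quantile normalization (-0.39). Gabrq was at 0.813 ± 0.289 and 0.672 ± 0.193 FPKM. Gabre and the rho subunit genes Gabrr1, Gabrr2 and Gabrr3 had means of at most 0.238 FPKM in either group and were not tested.

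**Figure D4:**
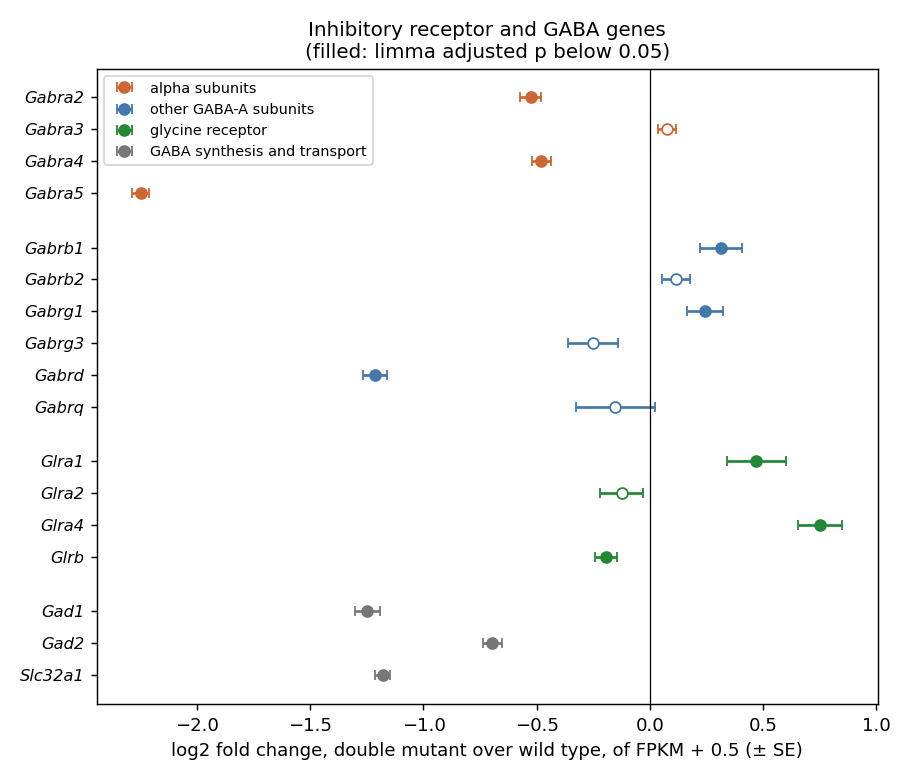
Log2 fold change (horizontal axis, double mutant over wild type, FPKM + 0.5, ± SE) of the tested alpha subunit genes, other GABA-A subunit genes, glycine receptor genes and genes of GABA synthesis and vesicular loading, with filled points for a limma adjusted p below 0.05. Gabra5 lies farthest to the left at -2.25, and Gabrd at -1.21 is the lowest of the partner subunits shown.

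Some genes of the same chromosomal cluster changed in different directions or by different amounts. Gabra2 and Gabra4 changed alike, with a difference of 0.05 in the log2 ratio of Gabra4 to Gabra2 (exact permutation p = 0.343). On chromosome 5, Gabra2 and Gabra4 fell while Gabrg1, 115.0 kb from Gabra2, and Gabrb1, whose start overlaps that of Gabra4 on the opposite strand, were higher. The calls of Gabrg1 and Gabrb1 were lost in some alternatives, and the Gabrg1 groups overlapped. The ratio of Gabra4 to Gabrb1 went from between 1.93 and 2.60 to between 1.19 and 1.48, a log2 difference of -0.80, and that of Gabra2 to Gabrg1 from between 6.82 and 8.20 to between 4.25 and 4.49, a difference of -0.77. On chromosome 7, Gabra5 lies 20.5 kb from Gabrg3, and the log2 ratio of Gabra5 to Gabrg3 differed by -2.00. Each of these differences had no overlap between the groups (exact permutation p = 0.0286, adjusted over the 6 ratios of a member to a cluster neighbour p = 0.0343). The ratio of Gabra3 to Gabrq, its neighbour on the X chromosome, differed by 0.23, within the spread (exact permutation p = 0.343).

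Among genes that anchor or transport GABA-A receptors, 9 of 17 fell, 3 rose and 5 did not pass, with a median of -0.17, beside 36.5% lower and 28.8% higher over all tested genes. The split depends on the scaling: with upper quartile scaling 8 were lower and 6 higher, and with quantile normalization 9 and 6. The smallest p-values were those of Hap1, which takes part in receptor transport (-1.24, from 119.3 ± 3.1 to 50.3 ± 3.0 FPKM, SD, n = 4), Shisa7, an auxiliary subunit (-1.19, from 35.6 ± 2.6 to 15.4 ± 1.0 FPKM), and Slitrk3, which encodes an adhesion protein of inhibitory synapses (-1.05, from 11.7 ± 0.3 to 5.42 ± 0.69 FPKM). Gabarapl1, the member with the highest level, fell by 0.17. The scaffold gene Gphn and the radixin gene Rdx, which anchors receptors with the Gabra5 product, were chosen after their values were seen. Gphn fell by 0.45, while Rdx measured 24.5 ± 0.6 and 25.8 ± 0.6 FPKM and did not pass (0.07, limma adjusted p = 0.0824), although it passed as higher in the 4 scaling alternatives (0.08 to 0.17).

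Chloride transporters set the direction of the current through these receptors. Of 5 listed chloride genes 2 fell, 2 rose and 1 did not pass, with a median of -0.03. This stands beside 36.5% lower and 28.8% higher over all tested genes. The importer gene Slc12a2 fell by 0.38, from 21.3 ± 1.1 to 16.3 ± 0.3 FPKM (SD, n = 4), and the neuronal exporter gene Slc12a5 by 0.21, from 99.7 ± 1.3 to 86.0 ± 2.2 FPKM. Slc12a7, another potassium chloride cotransporter gene, rose by 1.25, from 2.59 ± 0.20 to 6.83 ± 0.07 FPKM. The 3 listed genes of GABA synthesis and vesicular loading fell, beside 36.5% lower over all tested genes. Their log2 differences were -1.25 for Gad1, -1.18 for Slc32a1 and -0.70 for Gad2, with a median of -1.18.

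Glycine receptors are related chloride channels. Of their 4 tested genes 2 were higher and 1 lower, beside 28.8% higher and 36.5% lower over all tested genes. The remaining 1 did not pass, and the median was 0.17. Glra4 rose by 0.75, from 1.74 ± 0.28 to 3.26 ± 0.31 FPKM (SD, n = 4). Glra1 rose by 0.47 from 0.529 FPKM, but it did not pass with quantile normalization (0.27) or without letter B (0.46) or letter D (0.33). The beta subunit gene Glrb fell by 0.19, from 49.3 ± 1.3 to 43.1 ± 3.2 FPKM, and did not pass with upper quartile scaling (-0.11), with quantile normalization (-0.10) or without letter D (-0.17). Glra2 measured 2.83 and 2.56 FPKM and did not pass, and Glra3 was below the filter.

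Genes with the most similar profile over the 8 libraries were found by the root mean square difference between centred log2 profiles, over 13323 genes. Nearest to Gabra5 were Adamts19 (0.0843), Sp7 (0.127) and Egr2 (0.137), whose log2 fold changes were -2.17, -2.04 and -2.09. Nearest to Gabra2 were Kmt2e (0.0224), Armcx4 (0.0248) and Pogz (0.0257). Phip (0.0117), Bcat1 (0.0201) and Rap2a (0.0262) were nearest to Gabra4, and Nr1d2 (0.0202), Sdr42e1 (0.0231) and Pdxdc1 (0.0292) to Gabra3. The nearest profile to Gabra5 was farther away than the nearest of each other member. The measure includes the difference between the groups, and few genes fell as far as Gabra5, which ranked 5 from the lowest of 14349. The distance alone does not separate the shape of a profile from the size of its change.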

How the data were processed

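FPKM values per gene and library were deposited by the authors. The build GRCm38.p4 and the tools TopHat and Cufflinks 2.1.1 are named, per the submitters' processing notes, with no role or order. Annotation and strand setting: not given in the sources used here. Further columns of the deposited table, with count in their headers, hold a scaled signal whose steps differ between libraries. The column total divided by the step gave the depth, and these columns were otherwise used only for an alternative fit with a pseudocount of 10 and for fragments.

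Genes whose FPKM averaged 0.5 or more across the 8 libraries were fitted as log2(FPKM + 0.5) with limma 3.58.1 in R 4.3.3, with the group as the only term, variances that follow the mean and two-sided p-values adjusted by the Benjamini-Hochberg method over all 14349 tested genes. Ratios were tested with exact permutation tests. The fit was tested on simulated data with independent libraries and few changed genes, so that test does not cover libraries that share a letter. Figures were drawn with matplotlib 3.10.9 in Python 3.11.15.

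The members, gene lists and alternatives were chosen with earlier results of these data known. Besides the 5 members, genes were named by a rule: all listed partner subunit, glycine receptor and GABA synthesis genes, the 3 smallest p-values and the highest level of the anchoring and chloride lists, and the 3 most similar profiles per member without predicted genes, small RNAs, pseudogenes and olfactory receptors. Gabrp was not analysed here, and some listed genes are not reported here and were left out of the counts. Ratios between members and to cluster neighbours were added after the values were seen. Libraries of 1 letter differed by more than sampling noise (median chi-square 1.18 to 1.44 times its expectation) but by less than libraries of different letters of a group (1.56 to 2.35). They were counted as separate libraries, with the letter as a random block and the means of the letters as alternatives.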

Additional observations from a re-analysis of the deposited data

How the results depend on the processing

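Gabra2, Gabra4 and Gabra5 kept their direction and their call under all 23 alternatives, and all 4 ratios to Slc32a1 kept their direction under 7 alternatives each. The ratios were tested, and called, in 3 of these 7, and in the other 4, each without a letter, only the value was computed. Gabra3 was called under upper quartile scaling (0.1604), trimmed mean scaling (0.1344), quantile normalization (0.1701) and in the scaled count columns (0.1028), and its range over the others was 0.05 to 0.10; the cause was not tested. The median of all genes moved by at most 0.08 on the log2 scale under these scalings. Of the partner subunits 2 were called higher, and 1 to 3 when single libraries were left out, 1 without letter B, C or D. Of them 1 was called lower, 1 to 2 when single libraries were left out, and 2 without letter B and with quantile normalization, where 5 were called in either direction. Leaving out libraries or letters lowers the number of samples. Gabra6 was fitted only in the alternative with no filter, where 4 of 5 members were called lower, Gabra6 among them. That call rests on the same few fragments at the limit of detection, so no fold is given.

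The replicate numbers of the labels do not pair libraries across groups, with residual correlations of -0.052, 0.0011, 0.0050 and -0.030. With the replicate block the log2 fold changes were -0.527 for Gabra2, 0.0748 for Gabra3, -0.480 for Gabra4 and -2.249 for Gabra5, no call of these genes changed, and 9189 genes were called. A random term for the letter left 8471 genes called, and 7693 were called on the means of the letters.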
